A study of Mus musculus with 22 samples.

Results

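Of 68827 open chromatin regions (peaks) measured in mouse hepatocyte nuclei, 764 were all but closed in control livers and open in livers with advanced steatohepatitis on both of the diets studied. They were chosen by their levels: the mean was under 2 CPM (a peak's count over the sum of its library's counts, times 1e6) in both control groups and at least 8 CPM in both advanced groups. The control and advanced values below are therefore a description of the choice and are not tested. The mild livers took no part in the choice, and the tests below rest on them. Tests against controls also use libraries that made the choice.

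The data are ATAC-seq, in which a transposase cuts and tags accessible DNA, on nuclei that were pulled down from whole livers of 22 male HEP-INTACT mice, a strain whose hepatocyte nuclei carry a tag. In 1 arm mice ate the FPC diet (fructose, palmitate and cholesterol) over 20 weeks (4 mild and 3 advanced libraries), and 4 controls ate low fat diet for 20 weeks. In the other arm mice ate CDAHFD, which is high in fat, lacks choline and supplies L-amino acids in defined amounts, over 7 weeks (4 mild and 3 advanced), and 4 controls ate low fat diet for 7 weeks. The submitters split the fed mice by histology: mild and advanced livers were both steatotic and inflamed, and only the advanced ones were clearly fibrotic. Library totals in peaks, in units of 1e6 counts, ran from 3.79 to 9.33 and were lowest in FPC controls (4.50 ± 1.04, SD, n = 4). Of 10 hepatocyte markers, 9 had a promoter peak (within 1 kb of the transcription start). These summed to 341 to 397 CPM in controls, 344 to 387 in mild and 295 to 353 in advanced FPC livers. On CDAHFD the sum was 348 to 369 CPM in controls, 357 to 370 in mild and 333 to 357 in advanced livers. None of the 10 macrophage or 10 lymphocyte markers had a promoter peak, and 1 of 10 did for stellate and for endothelial cells. The stellate marker was at 14.5 to 25.4 CPM in controls, 6.68 to 14.4 in mild and 16.9 to 19.7 in advanced FPC livers, and at 18.9 to 29.4, 22.9 to 29.3 and 20.4 to 29.5 on CDAHFD, so the mild groups did not overlap. The endothelial marker was at 6.24 to 9.35, 5.4 to 7.17 and 5.08 to 6.03 CPM on FPC and at 8.08 to 12.3, 5.04 to 6.59 and 3.29 to 4.18 on CDAHFD, in the same order of stages. For cholangiocytes, the cells that line bile ducts, 6 of 10 markers had a promoter peak and 4, among them Krt19, Cftr and Prom1, had none. The sum of those 6 moved with stage: it was 52.4 to 65.3 CPM in controls of both arms, 53.4 to 75.7 in mild livers, 107 to 133 in advanced FPC livers and 86.7 to 101 in advanced CDAHFD livers. No marker of any of these cell types was the nearest gene of a chosen peak. What part the shifts in the hepatocyte, cholangiocyte, stellate and endothelial signals had in the results was not tested.

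Enhancers and promoters that are closed in a resting cell open when transcription factors displace or remodel nucleosomes. AP-1, a dimer of FOS and JUN proteins, is known for doing this in stressed and growing cells, often together with TEAD factors of the Hippo pathway. Hepatocyte identity rests on other factors, HNF4A, FOXA and C/EBP proteins among them, whose sites lie in chromatin that is already open in the healthy liver. Injured hepatocytes are known to take up features of bile duct cells and of cells under mechanical strain.

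The letters could be read for 22 of the 764 peaks, those that share at least 100 bp with a RefSeq promoter window (GRCm38.p6, the same build as mm10; 250 bases before to 50 after the start). The AP-1 motif TGANTCA, read on both strands, stood in 8 of these 22 windows (36.4%, exact binomial 95% interval 17.2% to 59.3%). It stood in 4.68% of the 11037 windows over any peak, in 15.2% of 125 windows over other peaks that were under 2 CPM in both control groups, and in 7.81% of all 32817 windows. The 22 windows had a median GC content of 57.2%, against 62.0% over any peak. The following stretches are the part of the peak that lies in the window and before its start. They are written 5′ to 3′ on the strand of the gene and are shown because they hold the AP-1 motif, which is in capitals.
Sprr1a: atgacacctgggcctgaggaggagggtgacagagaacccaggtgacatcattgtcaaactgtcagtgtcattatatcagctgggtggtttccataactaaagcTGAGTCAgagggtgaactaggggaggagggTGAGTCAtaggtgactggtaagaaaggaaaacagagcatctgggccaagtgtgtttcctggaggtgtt
Scel: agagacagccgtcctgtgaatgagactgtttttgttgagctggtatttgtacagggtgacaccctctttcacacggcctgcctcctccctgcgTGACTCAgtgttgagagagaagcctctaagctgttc
Arhgef10l: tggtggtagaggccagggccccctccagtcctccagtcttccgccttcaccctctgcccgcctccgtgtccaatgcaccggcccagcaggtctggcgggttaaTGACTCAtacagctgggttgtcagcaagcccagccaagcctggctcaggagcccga
Ypel4: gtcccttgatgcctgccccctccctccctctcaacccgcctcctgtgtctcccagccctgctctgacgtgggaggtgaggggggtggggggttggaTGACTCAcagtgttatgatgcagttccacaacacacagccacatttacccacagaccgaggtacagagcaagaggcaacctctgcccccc
Gm52825: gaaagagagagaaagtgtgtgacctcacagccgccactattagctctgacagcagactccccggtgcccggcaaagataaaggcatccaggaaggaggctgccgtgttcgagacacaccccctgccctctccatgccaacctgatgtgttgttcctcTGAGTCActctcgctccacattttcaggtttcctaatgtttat
Sgms1: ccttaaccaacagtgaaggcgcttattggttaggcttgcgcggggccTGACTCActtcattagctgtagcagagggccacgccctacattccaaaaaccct

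These stretches lie on mm10 at chr3:92485930-92486130 (minus strand) for Sprr1a, chr14:103513212-103513340 (plus) for Scel, chr4:140665888-140666046 (minus) for Arhgef10l, chr2:84733954-84734139 (plus) for Ypel4, chr5:113989694-113989893 (plus) for Gm52825, and chr19:32211014-32211114 (minus) for Sgms1. Sprr1a and Scel encode proteins of the cornified envelope of stratified epithelia, Arhgef10l an exchange factor for small GTPases, and Sgms1 a sphingomyelin synthase. The Gm52825 stretch, of a long non-coding RNA, lies in intron 1 of Ssh1, the nearest gene in the files, whose product is a phosphatase that activates the actin-severing protein cofilin. The other windows with the motif were those of Lnx1 and Gm13387 (nearest gene Nrarp), whose matches reach outside the printed limits. In 2 of the 8 windows the AP-1 letters overlapped a match to the antioxidant response element TGACNNNGC. That element itself stood in 6 of 22 windows (27.3%, against 15.2% over any peak and 12% over other peaks low in controls).

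Other motifs were searched the same way. NF-kB (GGANTTTCC) and TEAD (ACATTCC) each stood in 2 of 22 windows (9.09%), against 1.23% and 2.56% of windows over any peak. ETS (CNGGAAG) stood in 31.8% against 41.7%, KLF (GGGNGTGG) in 27.3% against 23.7%, C/EBP (TTGCNNAA) in 4.55% against 8.63%, FOXA (TGTTTAC) in 4.55% against 2.77%, and CTCF (CCANNAGGG) in 9.09% against 6.62%. HNF4 (CAAAGTCC), STAT (TTCNNNGAA), RUNX (TGTGGTT) and SOX (ACAATGG) had no match in these 22 windows, where the shares over any peak were 1.58%, 6.68%, 3.20% and 1.85%. The 125 windows over other peaks low in controls gave 1.6% for NF-kB, 3.2% for TEAD, 32.8% for ETS and 24.8% for KLF. They gave 8.8% for C/EBP, 4% for FOXA, 7.2% for CTCF, 0.8% for HNF4, 7.2% for STAT, 6.4% for RUNX and 2.4% for SOX. The ETS share of the 22 windows was thus near that of the other peaks low in controls. With 22 windows, a share of this size has a wide interval, and a match is a match of letters only. Ier3, an immediate early gene, had the NF-kB match (capitals below; chr17:35821506-35821706, plus strand). The promoter stretches of Arhgef2 (chr3:88616034-88616142, plus), Tagln2 (chr1:172500102-172500245, plus) and Ddr1 (chr17:35700591-35700758, minus) are shown because these loci recur in the results. They hold none of the AP-1, NF-kB or TEAD letters.
Ier3: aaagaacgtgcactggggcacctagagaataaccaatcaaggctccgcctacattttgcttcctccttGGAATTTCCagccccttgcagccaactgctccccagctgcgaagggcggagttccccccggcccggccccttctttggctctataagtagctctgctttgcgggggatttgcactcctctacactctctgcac
Arhgef2: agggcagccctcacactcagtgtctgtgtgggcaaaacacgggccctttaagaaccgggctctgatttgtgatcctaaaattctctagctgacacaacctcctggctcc
Tagln2: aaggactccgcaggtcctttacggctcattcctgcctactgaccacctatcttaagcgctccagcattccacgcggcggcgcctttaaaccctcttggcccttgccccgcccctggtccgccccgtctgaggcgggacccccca
Ddr1: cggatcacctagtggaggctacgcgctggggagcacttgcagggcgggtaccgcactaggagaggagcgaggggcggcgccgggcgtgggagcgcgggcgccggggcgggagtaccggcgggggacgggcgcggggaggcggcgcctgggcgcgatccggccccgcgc

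**Figure D1:**
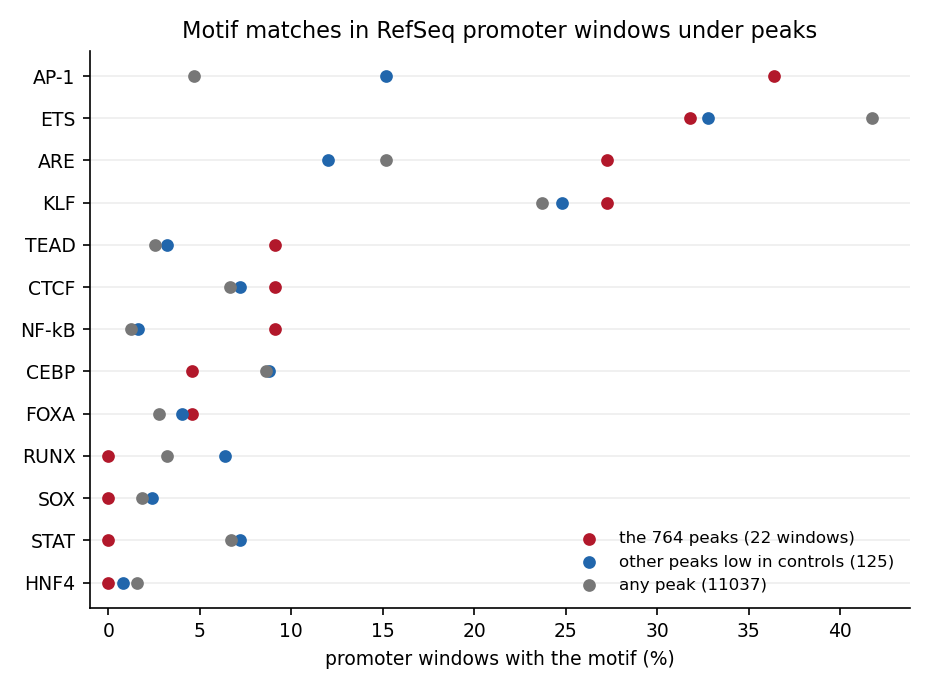
Share of RefSeq promoter windows (x axis, percent) that hold each motif (y axis, by name) for 22 windows under the 764 peaks, 125 under other peaks low in controls and 11037 under any peak. In the 22 windows, which cover 2.88% of the 764 peaks, AP-1 is at 36.4%, the highest of the motifs drawn, and is at 4.68% over any peak.

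Summed over the 764 peaks, accessibility was graded by stage in both arms. In FPC livers the sum was 793 to 891 CPM in the 4 controls, 2986, 3559, 3257 and 3851 CPM in the 4 mild livers, and 8324, 11840 and 9922 CPM in the 3 advanced livers. In CDAHFD livers it was 613 to 802 CPM in controls, 4928, 4375, 5841 and 5335 CPM in mild livers, and 10160, 10906 and 10186 CPM in advanced livers. The 3 stages did not overlap within an arm, and every mild CDAHFD liver lay above every mild FPC liver. As a share of all counts in peaks, the FPC control livers gave 0.0845% ± 0.00404, the mild ones 0.341% ± 0.0374 and the advanced ones 1.00% ± 0.176 (SD over the libraries named above). On CDAHFD the shares were 0.0670% ± 0.00881, 0.512% ± 0.0621 and 1.04% ± 0.0424. The advanced FPC livers varied most: replicate 1 was the lowest of the 3 for 583 of the 764 peaks and replicate 2 the highest for 578. In nuclei pooled from a liver, a few fully open nuclei and a slight opening in all of them cannot be told apart.

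**Figure D2:**
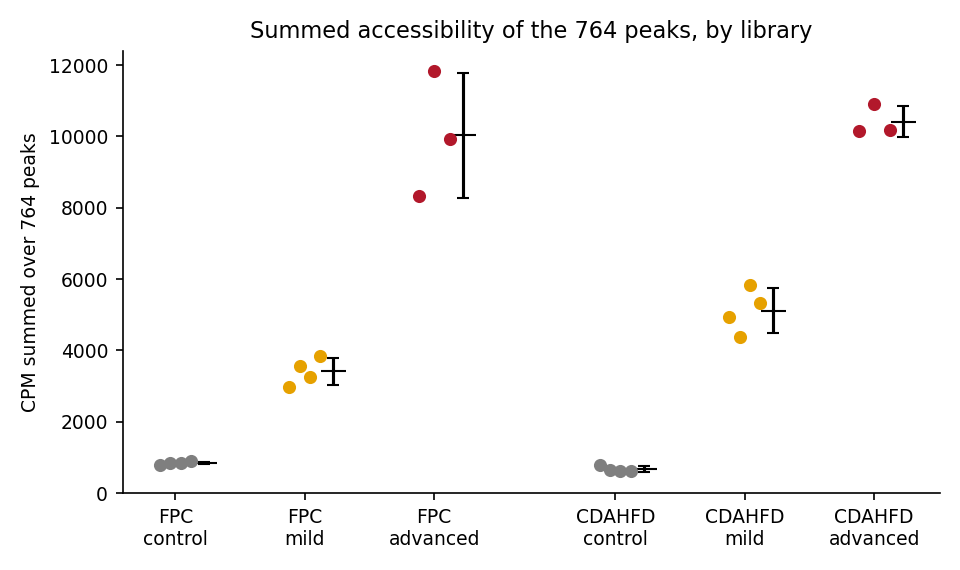
CPM summed over the 764 peaks (y axis) in each of 22 libraries, by diet and stage (x axis); points are libraries, the bar beside them the mean ± SD. Mild livers sit at 2986 to 3851 on FPC and 4375 to 5841 on CDAHFD, between their controls and advanced livers.

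The mild group mean was at 2 CPM or more, the level under which the rule kept both control means, for 724 of the 764 peaks on FPC. On CDAHFD this held for all 764. It held for 98.4% (FPC) and 98.7% (CDAHFD) of all peaks, and for 64.7% and 87.5% of the 2448 other peaks under 2 CPM in both control groups. The mild mean was at 8 CPM or more for 50 of the 764 peaks on FPC and for 191 on CDAHFD, against 59.0% and 58.3% of all peaks. All 4 mild livers lay above all 4 controls for 691 of the 764 peaks on FPC (90.4%), where this held for 15.5% of all peaks. On CDAHFD it held for 758 of 764 (99.2%), against 19.5% of all peaks. Among the 2448 other peaks under 2 CPM in both control groups it held for 55.8% on FPC and 88.6% on CDAHFD. The controls were chosen to be low here, so these counts describe the set and nothing is read from them. Taken as a percent of the advanced change in mean CPM, the mild change had a median of 25% on FPC (quartiles 19.0% and 33.2%) and of 43.0% on CDAHFD (quartiles 35.0% and 53.4%). For single mild livers this median ran from 20.6% to 29.3% on FPC and from 34.4% to 51.4% on CDAHFD, so the diets did not overlap by liver. The value was higher on CDAHFD for 697 of the 764 peaks. The scale sets its size: on log2(CPM + 0.5) the medians were 50.4% and 69.3%, in the same order.

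**Figure D3:**
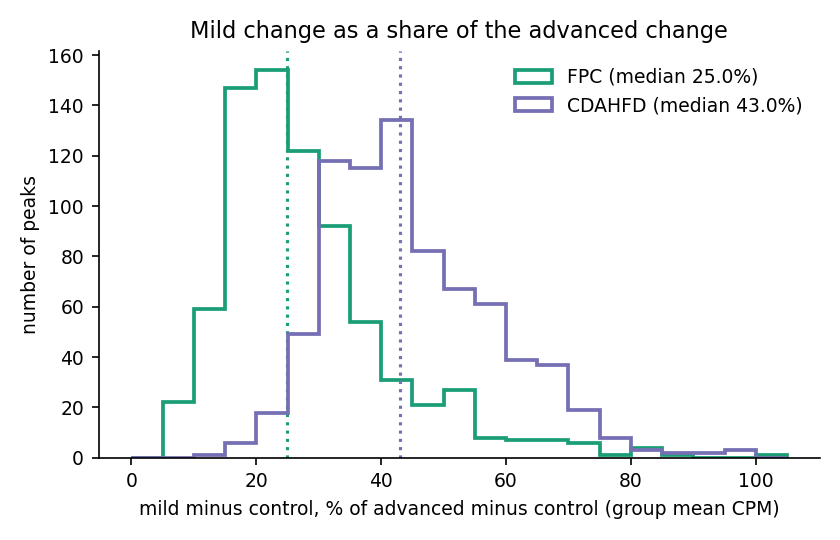
Number of peaks (y axis) by the mild change from control as a percent of the advanced change (x axis, group mean CPM) for each diet; dotted lines are the medians, 25% on FPC and 43.0% on CDAHFD. The CDAHFD curve lies to the right of the FPC curve.

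The peaks with the highest advanced levels showed the same grading liver by liver. The highest was in intron 5 of Usp43, a ubiquitin-specific peptidase (chr11:67897035-67897235). It was at 1.08 to 1.75 CPM in the 4 FPC controls, at 16.8, 17.5, 19.2 and 24.1 in mild and at 45.4, 51.4 and 50.2 in advanced FPC livers. On CDAHFD it was at 1.01 to 2.21 CPM in controls, at 28.2, 24.8, 34.6 and 27.6 in mild and at 50.3, 54.2 and 49.4 in advanced livers. All mild CDAHFD livers lay above all mild FPC livers, with a log2 difference of 0.54 ± 0.12 (SE; edgeR's quasi-likelihood test over all 68827 peaks, Benjamini-Hochberg adjusted p = 0.00262).

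The next was in intron 2 of Ajuba, which encodes a LIM-domain protein that restrains the LATS kinases of the Hippo pathway (chr14:54572883-54573083). Its values on FPC were 1.5 to 2.32 CPM in controls, 15.2, 18.8, 18.6 and 18.1 in mild and 38.1, 52.0 and 50.5 in advanced livers. On CDAHFD they were 0.672 to 1.99 CPM in controls, 21.6, 17.7, 27.6 and 20.6 in mild and 42.5, 49.5 and 42.1 in advanced livers. The mild livers of the 2 diets overlapped here, and the difference did not pass the test (0.28 ± 0.14 log2, edgeR adjusted p = 0.209).

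Rasa2 encodes a protein that switches RAS off by activating its GTPase. The peak 18646 bp before its start (chr9:96650049-96650249) was at 0.480 to 0.998 CPM in FPC controls, at 4.48, 5.22, 6.67 and 7.88 in mild and at 21.9, 35.9 and 29.5 in advanced FPC livers. It was at 0.168 to 0.855 CPM in CDAHFD controls, at 16.1, 12.5, 17.6 and 15.5 in mild and at 38.2, 47.4 and 37.1 in advanced CDAHFD livers. Mild CDAHFD livers were higher by 1.31 ± 0.18 log2 (edgeR adjusted p = 2.21e-05), without overlap.

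Other peaks of this rank were near Tenm4, Mir1953, Tagln2, Pgm1, Agfg1 and Mbnl1, with advanced group means of 23.4 CPM (Pgm1 on FPC) to 43.0 CPM (Pgm1 on CDAHFD). In mild livers these 6 were called higher on CDAHFD, by 0.56 ± 0.16 (Tenm4) to 1.54 ± 0.18 log2 (Pgm1, a phosphoglucomutase). The calls for Tenm4, Mir1953 and Tagln2 were lost in 4, 5 and 3 of the 8 fits that left out 1 mild library (edgeR adjusted p up to 0.0838, 0.110 and 0.0805), among them those without mild FPC replicate 1, mild FPC replicate 2 or mild CDAHFD replicate 3. The Agfg1 peak, 7429 bp before the start, had no count in 2 of the 4 FPC controls and at most 0.662 CPM in the others.

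**Figure D4:**
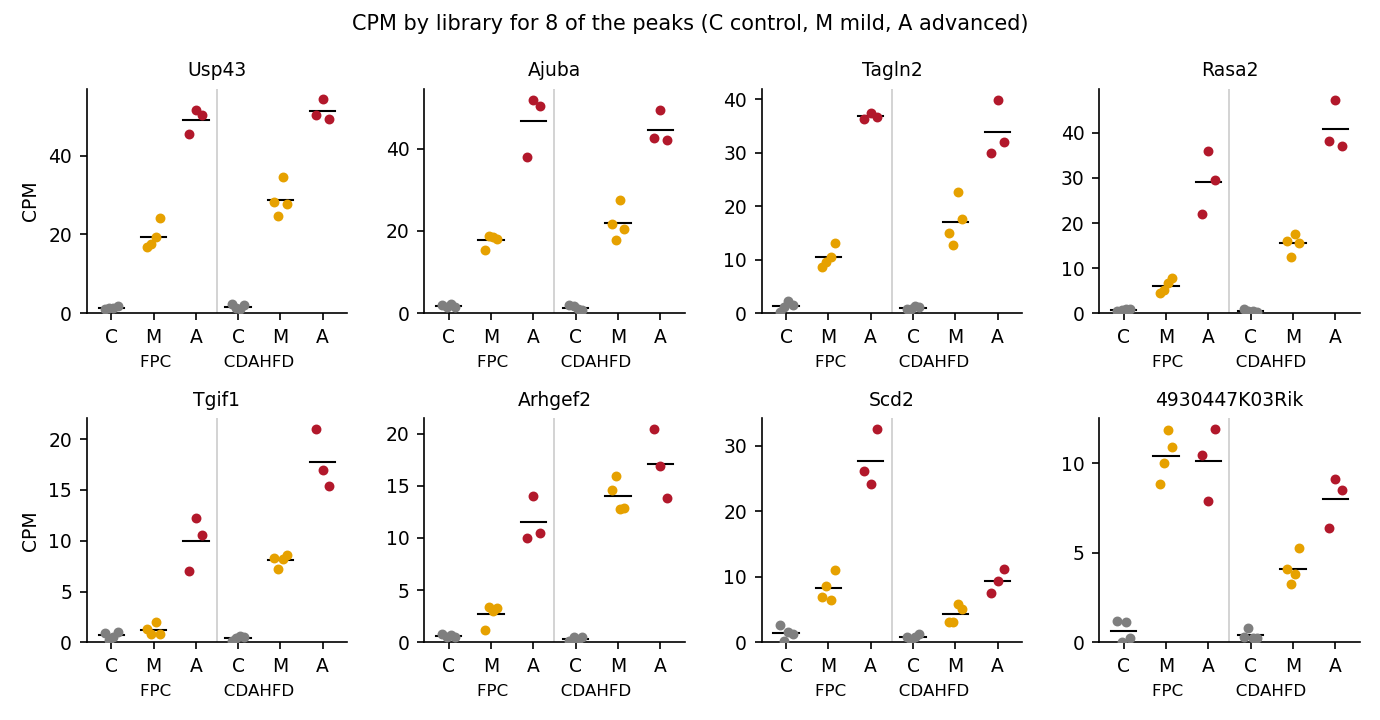
CPM (y axis) of 8 of the peaks, named by their nearest gene, in each library by stage (x axis; C control, M mild, A advanced; FPC left, CDAHFD right of the grey line); points are libraries and bars group means. In Tgif1 and Arhgef2 the mild livers of CDAHFD lie far above those of FPC, and in Scd2 and 4930447K03Rik below them.

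The mild livers gave the test that the choice of peaks did not use. Of the 764 peaks, 297 were higher in mild CDAHFD than in mild FPC livers, 6 were lower and 461 were not called (edgeR adjusted p under 0.05). Of all 68827 peaks, 4.64% were called higher and 6.75% lower. The median log2 difference was 0.56 over the 764 peaks and -0.00129 over all peaks. Among the 2448 other peaks under 2 CPM in both control groups, 506 were higher and 72 lower, with a median of 0.38. Without regard to a test, all 4 mild CDAHFD livers lay above all 4 mild FPC livers for 316 of the 764 peaks, where 8.93% of all peaks did so, and all 4 lay below for 7, where 8.84% of all peaks did so. Diet, length of feeding and the degree of disease within the mild class differ together between these groups and cannot be told apart.

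The calls are set beside the levels in advanced livers here. Of the 428 peaks whose advanced mean was higher on CDAHFD, 260 were called higher and 0 lower in mild CDAHFD livers by edgeR. At an unadjusted p under 0.05 these counts were 322 and 4, and DESeq2 called 265 and 0. Of the 336 with a higher advanced mean on FPC, 37 were called higher and 6 lower. At an unadjusted p under 0.05 these counts were 90 and 14, and DESeq2 called 42 and 6. Of all 764 peaks, edgeR called 38.9% higher. The advanced levels took part in the choice, and the same split was not made over all peaks. These counts are therefore a description. Across the 764 peaks, the log2 ratio of the diets in mild livers correlated with that in advanced livers (Pearson r = 0.62, Spearman rank correlation 0.62, across peaks of the same libraries, given as a description). Of the 63 peaks within 1 kb of a start, 14 were called higher (22.2%), and of the 701 farther ones 283 were (40.4%); this difference was not tested. Taking the change from each diet's own controls in place of the mild level, 88 peaks were called higher and 0 lower by edgeR (of all 68827 peaks, 1167 and 1238). At an unadjusted p under 0.05 the counts were 308 and 1, and DESeq2 called 125 and 0. This comparison uses the control values that chose the peaks.

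**Figure D5:**
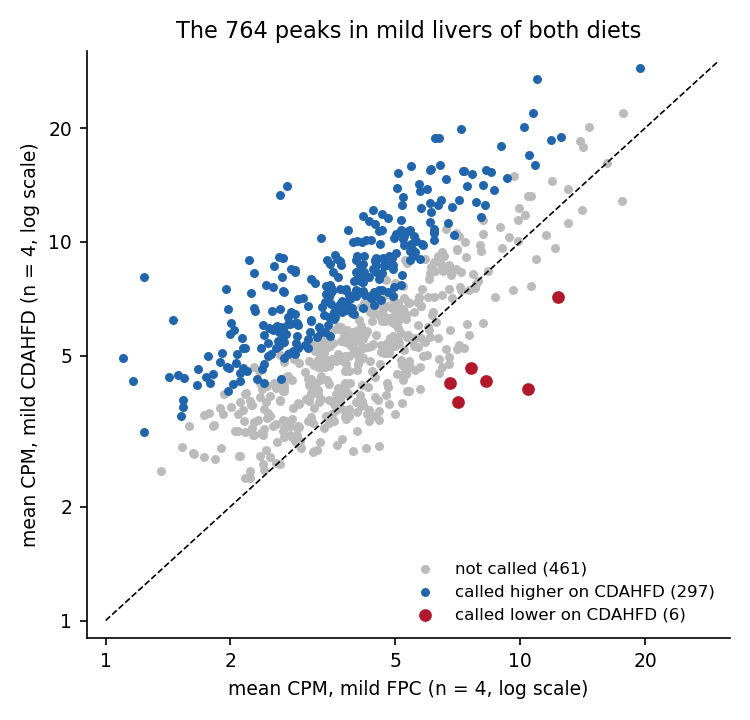
Mean CPM of each of the 764 peaks in mild FPC livers (x axis) and in mild CDAHFD livers (y axis), both on log scales, n = 4 each; the dashed line marks equal means. The 297 peaks called higher on CDAHFD lie above the line and the 6 called lower lie below it.

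Among the peaks called without overlap, the largest difference was at a peak 9768 bp from the start of Tgif1, a homeobox repressor of TGF-beta and SMAD signalling (chr17:70836909-70837109, in a Tigger7 DNA transposon). It was at 1.30, 0.811, 1.99 and 0.838 CPM in mild FPC livers and at 8.33, 7.24, 8.21 and 8.58 in mild CDAHFD livers, and the mild FPC livers alone overlapped their controls (0.264 to 0.998 on FPC, 0.142 to 0.596 on CDAHFD). The difference was 2.62 ± 0.26 log2 (edgeR adjusted p = 2.38e-07). In advanced livers this peak was at 7.03, 12.2 and 10.6 CPM on FPC and at 21.0, 17.0 and 15.4 on CDAHFD.

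The promoter of Arhgef2 came next. The gene encodes GEF-H1, a microtubule-bound exchange factor that activates RhoA, and its sequence is printed above. The peak, 73 bp before the start, was at 1.20, 3.42, 3.03 and 3.27 CPM in mild FPC and at 14.6, 15.9, 12.8 and 12.9 in mild CDAHFD livers (2.31 ± 0.22 log2, edgeR adjusted p = 7.02e-08). Advanced livers were at 10.05, 14 and 10.5 CPM on FPC and at 20.5, 16.9 and 13.8 on CDAHFD. The mild change was 19.3% of the advanced change on FPC and 82.1% on CDAHFD.

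Peaks near Gm20554, Jazf1, Calml3 and Gpr37l1 were higher in mild CDAHFD livers by 2.28 ± 0.29, 2.11 ± 0.27, 2.04 ± 0.31 and 1.95 ± 0.27 log2. None of the 4 overlapped between the mild groups, and all 4 calls held in each of 15 alternative fits. Over the 297 peaks called higher, 196 kept the call in each of these 15, which include leaving out each mild library. The fit without a low-count filter repeats the main fit, since that filter removed no peak. The fit with a filter at 2 CPM also gave 297 higher and 6 lower, so these fits add little to the check.

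The 6 peaks called lower on CDAHFD were near 4930447K03Rik, Scd2, 1700034G24Rik, 9630028H03Rik, Cdkn2b and Unc5b. The 4930447K03Rik peak (intron 1) was at 8.87, 9.999, 11.9 and 10.9 CPM in mild FPC and at 4.07, 3.25, 3.82 and 5.25 in mild CDAHFD livers (-1.34 ± 0.23 log2, edgeR adjusted p = 0.000237). On FPC its mild level was that of its advanced livers (10.5, 7.92 and 11.9 CPM), and the mild change was 103% of the advanced one. Scd2 encodes a stearoyl-CoA desaturase, and its peak 297 bp past the start (chr19:44293873-44294073) was at 6.97, 8.65, 6.41 and 11.1 CPM in mild FPC and at 3.15, 3.05, 5.77 and 5.15 in mild CDAHFD livers (-0.97 ± 0.26 log2, edgeR adjusted p = 0.0130). In advanced livers it was at 26.2, 24.1 and 32.6 CPM on FPC and at 7.47, 9.30 and 11.1 on CDAHFD. The Scd2 call was lost without mild FPC replicate 4, mild CDAHFD replicate 1 or mild CDAHFD replicate 2 (adjusted p 0.0746, 0.0542 and 0.0526). Cdkn2b encodes the cell cycle inhibitor p15, and a peak 117054 bp from its start had a log2 difference of -0.94 ± 0.23 (edgeR adjusted p = 0.00650). The calls for 4930447K03Rik, 1700034G24Rik and Cdkn2b held in all 15 alternative fits of the mild groups, the 9630028H03Rik call was lost in 3 and the Unc5b call in 7. None of the 6 was called when the change from each diet's own controls was compared. Of the 297 called higher, 77 were also called higher there. As that comparison uses the control values that chose the peaks, nothing is read from it. The log2 difference of the changes was -0.08 for Cdkn2b, -0.10 for Scd2, -0.61 for 4930447K03Rik, -0.33 for 9630028H03Rik and -0.82 for 1700034G24Rik. For Unc5b it was positive, 0.93. In this order, edgeR adjusted p was 0.954, 0.959, 0.694, 0.728, 0.164 and 0.392.

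By annotation, the 764 peaks were distal. Intergenic peaks made up 47.6% of them (364), against 30.6% of all peaks, and introns 42.5% (325), against 40.3%. Promoters made up 6.02% (46), against 22.6%. A transcription start lay within 1 kb for 63 of 764 (8.25%), against 29.2% of all peaks, and the median distance was 18378 bp against 8727 bp. Other peaks under 2 CPM in both control groups had 9.76% within 1 kb and a median of 17854 bp. Of the 764 peaks, 37.7% had a peak of at least 8 CPM in both control groups within 10 kb, against 67.8% of all peaks and 40.5% of the other closed ones. A CpG island was annotated under 0.916% and 3.6%, respectively, of the 764 and of all peaks. Repeats of any kind covered 14.3% against 14%. Within repeats, ERV1 elements held 13 of the peaks (1.70%, against 0.617% of all peaks) and Tigger DNA transposons 6 (0.785% against 0.180%). Other families went the other way, among them ERVK (0.785% against 1.53%), L1 (0.916% against 1.61%) and Alu (0.131% against 0.997%). These counts are small and were not tested, and families were not counted for the other closed peaks. Of 24 peaks in Tigger7 copies, 3 were among the 764, including the Tgif1 and Tenm4 peaks.

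The 764 peaks had 648 nearest genes, of which 562 had 1 of the peaks, 64 had 2, 16 had 3 and 6 had 4 or more. The 6 were Ddr1 and Gpr37l1 with 5 each, and Tagln2, Tgif1, 1600002D24Rik and Mir5118 with 4 each. Another of the peaks lay within 10 kb for 125 of 764, and 13 neighbouring pairs overlapped or touched, so that these share reads. Tagln2 encodes transgelin 2, an actin-binding protein, and its 4 peaks spanned 1895 bp over the promoter (chr1:172500102-172500302, sequence above) and intron 1. Of the 5 peaks nearest to this gene, 4 were thus among the 764. Advanced group means of the 4 were 12.6 to 36.8 CPM on FPC and 8.99 to 33.9 on CDAHFD, and 2 of the 4 were called higher in mild CDAHFD livers. The highest, 896 bp past the start, was at 8.67, 9.55, 10.6 and 13.2 CPM in mild FPC and at 15, 12.7, 22.6 and 17.6 in mild CDAHFD livers, which overlap.

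Ddr1 encodes a receptor tyrosine kinase that binds collagen. Its 5 peaks spanned 10215 bp on chromosome 17, from upstream of the promoter printed above, over that promoter, into intron 1. By the annotation each lay at most 3531 bp from a start of the gene, which for the upstream peak is not the start of the printed promoter. Their advanced group means were 18.3 to 25 CPM on FPC and 18 to 30.4 on CDAHFD. The upstream one (chr17:35708030-35708230) was at 5.68, 5.4, 5.20 and 8.63 CPM in mild FPC and at 17.1, 17.1, 23.6 and 17.4 in mild CDAHFD livers (1.55 ± 0.21 log2, edgeR adjusted p = 1.17e-05). The promoter peak was at 2.69, 5.58, 5.37 and 5.36 CPM in mild FPC and at 6.10, 6.24, 11.1 and 8.25 in mild CDAHFD livers. Its difference was 0.69 ± 0.23 log2 and did not pass (edgeR adjusted p = 0.0518). It passed in 5 of the 15 alternative fits, where its adjusted p ran from 0.0265 (DESeq2) to 0.193. The 3 in intron 1 passed, by 0.98 ± 0.25 to 1.19 ± 0.25 log2. The lowest of these 3 was at an adjusted p of 0.05003 without mild CDAHFD replicate 3.

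Genes of 14 lists were looked up among the nearest genes, where 1.11% of all peaks are among the 764. The share was 4.72% for TGF-beta, PDGF and fibrosis factors (11 of 233 peaks), 4.44% for the Hippo pathway with YAP and TEAD targets (8 of 180), 3.57% for biliary and progenitor genes (6 of 168), 2.67% for RAS, MAPK and growth factor signalling (7 of 262), 2.38% for the actin cytoskeleton and its regulators (11 of 463) and 2.14% for matrix, integrins and adhesion (4 of 187). It was 1.8% for inflammation (4 of 222), 1.78% for lipid droplets and lipid uptake (4 of 225), 1.71% for p53 and senescence genes (2 of 117), 1.33% for AP-1 and immediate early genes (3 of 226), 1.29% for NRF2 targets (2 of 155), 1.11% for Wnt and Notch (3 of 271), 0.699% for the cell cycle (1 of 143) and 0.208% for hepatocyte identity genes (1 of 480, near Prox1). Which peaks belong was set by the control and advanced levels, so the shares are a description. In all, 66 of the 764 peaks were near a listed gene.

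Of the 8 peaks of the Hippo list, 0 were called in either direction in mild livers by edgeR or DESeq2, and 0 had an unadjusted p under 0.05, with a median log2 difference of -0.23, where the median of the 764 peaks was 0.56. The peak at the promoter of Ctgf, a matricellular target of YAP, was at 4.58, 5.95, 3.55 and 5.11 CPM in mild FPC and at 1.97, 3.72, 6.26 and 4.61 in mild CDAHFD livers. In advanced livers it was at 13.4, 18.2 and 14.2 CPM on FPC and at 6.98, 7.24 and 11.7 on CDAHFD. The other peaks of this list were near Ajuba, Arhgef17, Myof, Ptpn14 and Tead3, and all but the Ajuba peak had advanced FPC means of at least 15.2 CPM beside CDAHFD means of at most 12.5.

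Of the 7 peaks of the RAS, MAPK and growth factor list, 3 were higher in mild CDAHFD livers, where 38.9% of the 764 were. Tgfa encodes a ligand of the EGF receptor, and the peak 14440 bp before its start was at 4.09, 7.84, 3.64 and 4.61 CPM in mild FPC and at 13.9, 12.1, 15.5 and 14 in mild CDAHFD livers (1.42 ± 0.18 log2, edgeR adjusted p = 6.48e-06). Hbegf, another EGF receptor ligand, had a peak at 1.59 to 1.91 CPM in mild FPC and at 3.82 to 7.50 in mild CDAHFD livers (1.5 ± 0.28 log2, edgeR adjusted p = 0.000739). The third is the Rasa2 peak above. By edgeR, by DESeq2 and at an unadjusted p under 0.05, 3 were higher and 0 lower, and the median log2 difference was 0.54. The other peaks, 2 near Fgfr3 and 1 each near Igf1r and Src, did not pass, and the one 1096 bp before the Fgfr3 start had a log2 difference of -0.29 (edgeR adjusted p = 0.481). The mild livers did not overlap at the Tgfa, Hbegf and Rasa2 peaks.

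Of the actin cytoskeleton list, 5 of 11 peaks were higher in mild CDAHFD livers and 0 lower by edgeR and by DESeq2. At an unadjusted p under 0.05 these counts were 8 and 0, and the median was 0.52 log2. Of all 764 peaks, edgeR called 38.9% higher and 0.785% lower, with a median of 0.56 log2. The 5 peaks were those near Arhgef2, Vcl, Elmo1, Rnd1 and Myo10. Vcl encodes vinculin, which ties actin to focal adhesions, and the peak in its intron 2 was at 2.19, 5.13, 3.99 and 5.36 CPM in mild FPC and at 12.7, 8.76, 15 and 10.2 in mild CDAHFD livers (1.44 ± 0.23 log2, edgeR adjusted p = 9.98e-05). The Myo10 call was lost in 4 of the 15 alternative fits.

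Of 3 peaks near AP-1 and immediate early genes, 2 were higher (median 1.16 log2), where 38.9% of the 764 were. The peak 11608 bp before Fosb, a subunit of AP-1, was at 3.79, 2.70, 2.25 and 2.68 CPM in mild FPC and at 4.86, 4.58, 9.76 and 6.65 in mild CDAHFD livers (1.16 ± 0.26 log2, edgeR adjusted p = 0.00407). A peak 199693 bp from Klf4, a Kruppel-like factor of epithelial cells, was higher by 1.20 ± 0.20 log2 (edgeR adjusted p = 0.000274). The Ier3 promoter, with the NF-kB letters, was at 6.19 ± 2.17 CPM in mild FPC and 8.83 ± 2.20 in mild CDAHFD livers (SD, n = 4 each) and did not pass (edgeR adjusted p = 0.237).

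The Sprr1a promoter, with AP-1 letters at 2 places, was at 1.49, 2.79, 1.82 and 1.84 CPM in mild FPC and at 4.86, 3.12, 5.77 and 4.88 in mild CDAHFD livers (1.16 ± 0.30 log2, edgeR adjusted p = 0.0106). The Ssh1 peak, with the Gm52825 stretch, was higher by 0.87 ± 0.22 (edgeR adjusted p = 0.00860). The Scel, Arhgef10l, Ypel4 and Sgms1 peaks did not pass, with log2 differences of 0.36, 0.36, 0.12 and 0.34.

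Of the TGF-beta, PDGF and fibrosis list, 1 of 11 peaks was higher, that near Bmp2 (0.87 ± 0.20 log2, edgeR adjusted p = 0.00465), and 0 were lower (2 and 0 at an unadjusted p under 0.05; DESeq2 called the same numbers as edgeR; median 0.28 log2). Those near Ski, Pdgfa, Pdgfc, Smad3, Smad6 and Smad7 did not pass. The counts of each list in this paragraph stand beside the 38.9% of the 764 peaks that edgeR called higher and the 0.785% called lower. Of the biliary list, 2 of 6 were higher, near Krt8 (0.85 ± 0.23, edgeR adjusted p = 0.0149) and Anxa2 (1.07 ± 0.31, edgeR adjusted p = 0.0238), and the median was 0.13 log2. The Krt8 call was lost without mild FPC replicate 4, and the Anxa2 call in 5 of the 15 alternative fits. As the cholangiocyte markers above moved with stage, their part in these peaks was not tested. Of the 4 peaks of the matrix list (median 0.04 log2), the 2 of the NRF2 list, the 1 of the cell cycle list (near E2f3) and the 1 near Prox1, 0 were called by edgeR or DESeq2 and 0 had an unadjusted p under 0.05. Called higher were 1 of 4 peaks of the inflammation list, 2 of 4 of the lipid list and 1 of 3 of the Wnt and Notch list (near Rbpj, lost in 4 of the 15 alternative fits). At an unadjusted p under 0.05 these counts were 1, 4 and 2, DESeq2 called 1, 3 and 1, and none was lower by either. Of the p53 list 1 was higher (near Phlda3, lost in 3) and 1 lower (near Cdkn2b). Socs1, a feedback inhibitor of cytokine receptors, had a peak higher by 1.22 ± 0.18 log2 (edgeR adjusted p = 3.49e-05), and Gpat3, an acyltransferase of triglyceride synthesis, by 0.97 ± 0.15 log2 (edgeR adjusted p = 6.19e-05).

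Peaks differed in how far mild livers had gone. On FPC the mild change was under 20% of the advanced change for 228 peaks and over 50% for 62, and on CDAHFD for 7 and 241. Among the 238 peaks of at least 12 CPM in both advanced groups, the mild level relative to the advanced one, averaged over the diets, was highest near 9130401M01Rik (mild change 87.2% of the advanced one on FPC, 73.0% on CDAHFD), Dab2ip (50.6% and 96.3%), Tmem43 (70.1% and 67.9%), Speer4f1 (79.1% and 57.2%) and Ttll5 (55.0% and 76.9%). It was lowest near Chrm3 (15.6% and 16.3%), Cdsn (11.9% and 19.2%), Kpna3 (5.81% and 32.7%), Vwa5b1 (14.8% and 23.9%) and Prss22 (20.8% and 25.2%). Dab2ip, which encodes another RAS GTPase-activating protein, was at 11.4, 9.01, 14.6 and 8.89 CPM in mild FPC livers and at 26.1, 25.4, 31.0 and 25.1 in mild CDAHFD livers, where advanced CDAHFD livers were at 25.7, 30.0 and 27.9.

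At the start sites of the same genes, other peaks, which the rule did not choose, were tested against controls. Of the 648 genes, 62.5% had such a promoter peak (770 peaks in all). In mild FPC livers 182 of the 770 were higher than in controls (23.6%) and 49 lower (6.36%), where 16.9% of all 20072 promoter peaks were called higher and 7.14% lower. In mild CDAHFD livers 245 were higher (31.8%) and 60 lower (7.79%), where 22.7% of all promoter peaks were called higher and 9.3% lower. The median log2 change was 0.15 against 0.08 for all promoter peaks on FPC and 0.12 against 0.06 on CDAHFD. The genes were picked through peaks low in these same control libraries, so the counts are not independent of the choice. Only the chosen peaks were left out, and peaks that nearly met the rule stayed in. The excess over all promoter peaks is therefore a description.

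The change with the lowest p on both diets was at the promoter of Anxa2, a membrane-binding annexin. This peak missed the rule only by its FPC control mean of 2.26 CPM. It was at 2.11 to 2.40 CPM in FPC controls and at 18.1, 23.8, 21.5 and 27.4 in mild FPC livers (3.26 ± 0.18 log2), and at 0.954 to 1.60 CPM in CDAHFD controls and at 25.9, 26.2, 28.3 and 24.3 in mild CDAHFD livers (4.31 ± 0.17 log2). The promoters of Adamts1, a secreted metalloproteinase, and Ttc39a were also higher on both diets, by 3.06 ± 0.18 and 2.33 ± 0.19 log2 on FPC and by 2.81 ± 0.17 and 2.35 ± 0.16 on CDAHFD. The promoter of Osbpl3, of the oxysterol-binding protein family, was higher by 3.24 ± 0.24 log2 on CDAHFD. On FPC its mean was 2.44 CPM in controls, which alone kept it out of the 764, and 11.2 in mild livers. Promoters that were lower included Nostrin (-0.58 ± 0.10 on FPC), Dnm3 (-0.50 ± 0.09 on FPC and -0.51 ± 0.08 on CDAHFD), Nfe2l2 (-0.76 ± 0.10 on CDAHFD), the master regulator of the antioxidant response, and Mir21a (-1.24 ± 0.24 on CDAHFD). On the other diet the means also were lower in mild livers, from 58.2 to 42.3 CPM for Nfe2l2 and from 6.82 to 3.67 for Mir21a on FPC, and from 27.0 to 21.5 for Nostrin on CDAHFD. The difference of the changes between diets did not pass for Osbpl3, Nfe2l2, Mir21a or Nostrin (edgeR adjusted p = 0.0974, 0.293, 0.643 and 0.398). Among the promoters named here the highest edgeR adjusted p was 0.000205, for Dnm3 on FPC. The Nfe2l2 peak named here lies 630 bp before the start. For each gene, diet and direction only the promoter peak with the lowest p was named, and other peaks at the same start are not described. A distal Nfe2l2 peak, 60978 bp before the start, was among the 764. It was at 8.61 ± 0.515 CPM in mild CDAHFD livers (SD, n = 4), against 1.40 ± 0.496 in controls, where the rule required a low level. Its difference between the mild groups did not pass (0.37 log2, edgeR adjusted p = 0.248).

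Levels ran across the thresholds without a gap. Just inside, a peak near Fggy was at 1.995 CPM in FPC controls and a peak near Nudt4 at 8.003 in advanced FPC livers. Just outside were a peak near Piezo1 at 2.01 CPM in FPC controls and a peak near Mir5118 at 7.997 in advanced FPC livers. Within 0.8 CPM of the advanced FPC floor, 96 peaks lay inside and 91 outside.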

How the data were processed

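ATAC-seq of tag-captured hepatocyte nuclei was analysed in 22 libraries of 6 groups, each from a different mouse per the labels' titles. The estimated counts per peak were deposited by the authors without normalization, in steps of 0.5 (47.8% of values carry such a step), with mm10 coordinates, distances to the nearest start and annotation. A second deposited table holds the same counts as signal, cut to whole numbers and divided by 1 factor per library, and served as an alternative. BWA 0.7.5a-r405, SAMtools, HOMER and DESeq2 are named in the submitters' processing notes, without their roles; neither read shifting nor duplicate removal is described in the sources used. Every column of per-library values was mapped by its name to a group; within a group, replicate numbers only name libraries. No 2 libraries correlated above 0.970, and none were counted as 1.

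Members were chosen from plain CPM, the count over the column sum. Counts were rounded to whole numbers and fitted with edgeR 4.0.16 in R 4.3.3 (TMM factors 0.980 to 1.02, quasi-likelihood test, all 22 libraries, Benjamini-Hochberg over all 68827 peaks, adjusted p under 0.05). Its low-count filter removed none. The script was tested on simulated data. DESeq2 1.42.0, other scalings, filters and omissions of libraries were alternatives. In the shallowest library 3 counts were 0.793 CPM and in the deepest 0.322. Over its 4 libraries, a control group held a median of 19.5 (FPC) and 22.5 (CDAHFD) counts per member, so control levels are coarse. Intervals cover counting error only.

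The members and gene lists were chosen with earlier results of these data known. Peaks were named by nearest gene, 1 per gene, as those with the 10 highest advanced levels, the 6 largest differences each way between mild groups without overlap, up to 3 per list, genes with 4 or more members, the 5 highest and 5 lowest mild levels relative to advanced, and the 10 highest near a start. Results for some named genes, markers and motifs are not reported here. Hbegf, Bmp2, Anxa2 (distal), Sprr1a, Scel, Ssh1, Arhgef10l, Ypel4, Sgms1, Lnx1, Nrarp, Rnd1, Myo10, Ctgf, Ptpn14, Smad3, Smad6, Smad7, Pdgfc and Unc5b were named after their values were seen. The nearest gene is a label and was not tested as a target.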

Additional observations from a re-analysis of the deposited data

Results flagged for a closer look

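In 92 groups of 4 libraries (22 of the described peaks and the summed level), the highest or lowest library stood apart from the other 3 by Dixon's criterion in 11, where chance gives about 1 in 20. At the summed level, CDAHFD control replicate 1 was the highest, at 802 CPM. Near Ddr1 there were 5 such values: at the upstream peak, mild FPC replicate 4 was high at 8.63 CPM, CDAHFD control replicate 1 at 1.78 and mild CDAHFD replicate 3 at 23.6. In intron 1, mild FPC replicate 4 was high at 6.04 CPM, and at the promoter mild FPC replicate 1 was low at 2.69. Among FPC controls, replicate 4 was high near Tenm4 (1.75 CPM) and Gpr37l1 (2.24), and replicate 2 was high near Jazf1 (0.793). Among CDAHFD controls, replicate 2 was high near 4930447K03Rik (0.823 CPM) and replicate 4 low near 9630028H03Rik (0.336). Of the 11, 7 were control libraries, and at single peaks these control values rest on a few counts.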

How the results depend on the processing

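The number of peaks depended on the thresholds: 764 became 299 with a control ceiling of 1 CPM, 1206 with 3 CPM, 1526 with an advanced floor of 6 CPM, 413 with 10 CPM and 264 when every library had to pass. Leaving out 1 control or advanced library gave 669 to 822. Between mild groups, the difference of the changes from control gave 88 higher and 0 lower by edgeR in place of 297 and 6 (308 and 1 at an unadjusted p under 0.05). Without 1 mild library, 228 to 294 were higher and 3 to 8 lower, with 3 lower without mild FPC replicate 4 and without mild CDAHFD replicate 2. The other scalings, filters and tools gave 294 to 312 higher and 5 to 7 lower. On log2(CPM + 0.5) the median mild share was 50.4% for FPC and 69.3% for CDAHFD; without 1 mild library it was 23.9% to 26.4% and 40.7% to 46.1%. Within 2.5 kb of a start lay 14.4% of the peaks. For promoter peaks of the same genes, 94 were lower in mild CDAHFD livers within 2.5 kb (9.24%, against 10.8% of all peaks in that window). Without 1 library, FPC gave 140 to 174 higher and 37 to 54 lower (18.2% to 22.6% and 4.81% to 7.01%). All promoter peaks gave 12.9% to 15.5% and 5.35% to 6.95% in these fits. CDAHFD gave 204 to 228 and 46 to 61 (26.5% to 29.6% and 5.97% to 7.92%), and all promoter peaks 18.8% to 20.8% and 7.52% to 9.08%. Requiring 150 bp of overlap with the window, chosen after seeing the data, put AP-1 at 41.2%. The central 100 bp of peaks were not run, as no genome was used. Of 109 alternatives, 96 stayed within the replicate spread or 1.5 times the count. Among these are the other low-count filters, which gave the main counts again. The cause of the shifts was not tested. No paired analysis was possible because the replicate numbers only name libraries in accession order.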
